A study of Homo sapiens and Mus musculus with 213 samples.

Results

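Histone genes are the protein-coding genes of the nucleosome core (H2A, H2B, H3 and H4) and of the linker histone H1, and the RNA libraries examined here were made from polyadenylated RNA. Genes were chosen by symbol only, as those whose GENCODE symbol starts with H1-, H2AC, H2BC, H3C, H4C, H2AX, H2AZ, H3-3 or MACROH2A. Reported here are 80 annotated genes, of which 76 had their identifier among the 58336 genes of the files, 66 of them replication-dependent and 10 replacement or variant histones. H2AC18, H2AC19, H3C2 and H3C3 were not analysed here. The study used HEK293T, a human embryonic kidney cell line, and edited a G-quadruplex (G4) sequence upstream of the MYC promoter by CRISPR. WT cells carry the natural G4. In MUT cells the G-runs are mutated so that the G4 cannot fold, and in SWP cells a G4-forming sequence of another gene took its place. RNA-seq was made with 3 libraries per line. The edited lines were grown from single cells and are homozygous, and which clone gave the RNA is not stated in the sources used here, so that an edit and a property of its clone cannot be told apart.

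The genes of the replication-dependent histones are switched on in S phase, when new DNA has to be packaged, and their mRNAs are unlike those of other genes. They usually have no intron and no poly(A) tail, and end just past a conserved stem-loop to which the stem-loop binding protein SLBP binds; the U7 snRNP and a cleavage complex cut the RNA there, and the stem-loop governs its decay when replication stops. Replacement histones, such as H3.3 and H2A.Z, are made throughout the cell cycle from polyadenylated mRNAs. A library selected for poly(A) therefore captures polyadenylated replacement histone mRNA as it does other mRNA. Of the replication-dependent genes it captures mainly transcripts that carry a tail, so that a count of such a gene is not its total mRNA.

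The stem-loop is shown because it separates the gene classes. It was searched on the coding strand in the 100 bases after the stop codon, as a stem of 6 pairs that opens with GG and closes with CC around a loop of 4 bases with T at loop positions 1 and 3, at least 5 of 6 pairs matching. It was found in 69 of 70 annotated replication-dependent genes (98.6%), in 1 of 10 replacement or variant genes (10%) and in 28 of 19869 other protein-coding genes (0.141%). Its first base lay 22 to 67 bases after the stop codon, with a median of 35. In the lines below the stem-loop is in capitals with 5 flanking bases on each side, read 5′ to 3′ on the coding strand from hg38.
H1-2: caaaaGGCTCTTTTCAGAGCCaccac
H2BC12: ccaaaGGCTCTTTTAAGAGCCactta
H2AC6: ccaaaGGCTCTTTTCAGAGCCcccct
H2BC26: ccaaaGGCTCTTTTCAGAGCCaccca
H3C6: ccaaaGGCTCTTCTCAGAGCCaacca
H4C8: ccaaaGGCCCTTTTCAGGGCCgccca
H2AX: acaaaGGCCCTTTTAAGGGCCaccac
These stretches lie past the stop codon, with H1-2 at chr6:26055739-26055764 (minus strand), H2BC12 at chr6:27146361-27146386 (minus strand), H2AC6 at chr6:26124664-26124689 (plus strand), H2BC26 at chr1:228458533-228458558 (plus strand), H3C6 at chr6:26225591-26225616 (plus strand), H4C8 at chr6:26285126-26285151 (minus strand) and H2AX at chr11:119094893-119094918 (minus strand). The form in H1-2, H2AC6 and H2BC26 was the commonest, held by 40 genes of the H1, H2A, H2B and H3 families. The form in H2BC12 was held by 9 genes and that in H4C8 by 10, all of family H4. H2AX, a variant that marks DNA breaks once phosphorylated, was the replacement or variant gene with a stem-loop, and its annotated transcript runs 1024 bases past it. H2BC12L was the replication-dependent symbol without the stem-loop.

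Annotation divided the replication-dependent genes further. In 17 of them GENCODE annotates a transcript, here called longer, whose end lies past the stem-loop. The genomic distance to that end was 430 to 37155 bases, introns included. It is not a length of RNA: H2BC4, with the 37155, has 2881 exon bases in all. Whether a spliced longer transcript holds the stem-loop was not examined. In the other 48 listed genes with a stem-loop the annotated gene ends within 18 bases of it. Over all listed genes, and per kb of annotated exon, the median level was 33.8 normalised read counts where a longer transcript is annotated and 6.52 where the transcript ends at the stem-loop, against 1266 for the 10 replacement or variant genes. Over the 14 and 17 tested genes of these replication-dependent classes the medians were 70.0 and 58.4, and 16 of the 48 genes ending at the stem-loop and 3 of the 17 others had at most 3 reads in every library. These medians describe the annotation classes without a test, and exon length is that of the annotation and not of the RNA. The ranges overlapped: H2BC12 (2149 per kb) and H1-2 (1226 per kb), both annotated to end at the stem-loop, had the highest levels of all replication-dependent genes, above H2AC25 (685 per kb), the highest of those with a longer transcript. Among the replacement genes H2AZ1 (26509.6 per kb) and H1-10 (18731 per kb) were highest.

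**Figure D1:**
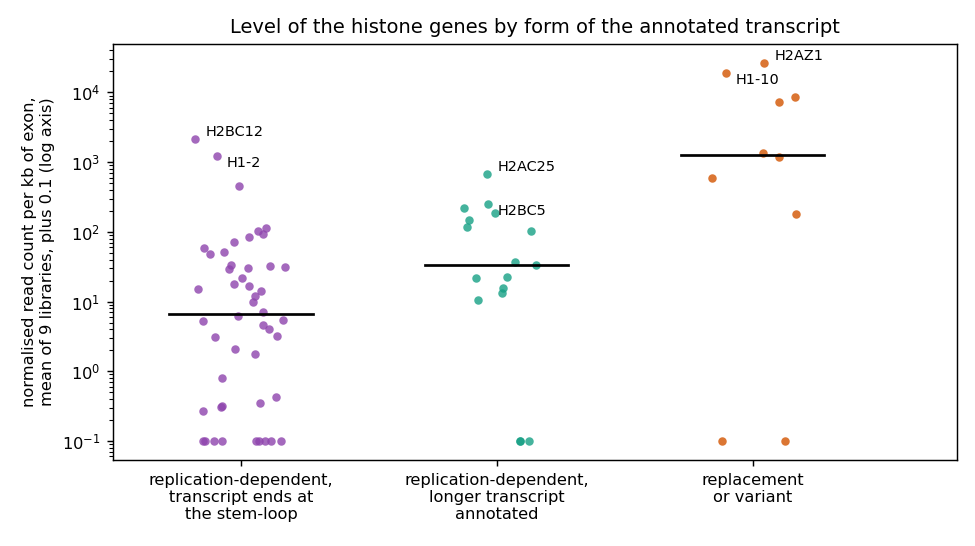
Level of the listed histone genes other than H2BC12L, as the mean normalised read count of 9 libraries per kb of exon plus 0.1 (log axis), by the form of the annotated transcript. Each point is a gene and each bar the median of a class. The medians rise from 6.52 to 33.8 to 1266, and H2BC12 and H1-2 stand at the top of the class with the lowest median.

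Sums over the 66 replication-dependent genes show how little of the libraries they took. Per library they held 57.8 to 95.7 reads per 1000000 counted on genes, and the 10 replacement or variant genes held 2219 to 2821. Of the 66, 13 had no read in any library, and 5 of these (H2BC12L, H3C14, H3C15, H4C14 and H4C15) have no 75-base window with a unique 31-base stretch in the genome, so that reads of such copies cannot be assigned, and a listed 0 says nothing of their RNA. A further 7 had at most 3 reads in every library. The minimum for a test, a mean of 10 normalised counts, was passed by 31 of 66 replication-dependent genes, with H2AC17 (8.55) and H2BC7 (7.85) just under it and H2AC16 (10.6) and H4C4 (13.2) just over it. H1-7 and H1-8, germ cell linker histones, had no read in any library, and the other 8 replacement or variant genes were tested.

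Libraries were compared first with each other. Reads counted on genes ranged from 65024354 to 98497026 per library. Replicate 1 of WT and replicate 1 of SWP differed more from their group than the others did among themselves, with a chi-square per degree of freedom of 38.4 to 55.6 against 24.5 in WT and of 41.5 to 49.3 against 12.1 in SWP. MYC, the gene next to the edit, had normalised read counts of 20020.3, 28396 and 21580.1 in the WT libraries, 10693, 11176 and 12399.8 in MUT and 14480.1, 24743 and 25245 in SWP. It was lower in MUT than in WT (log2 fold change -1.02, SE 0.19, adjusted p = 0.0018), and in SWP it did not pass the test (log2 fold change -0.15, adjusted p = 0.71). The header of each WT column carries a tag that the MUT and SWP headers lack, so that a difference between WT and an edited line and a difference in whatever the tag marks cannot be told apart. Of 6 kidney developmental markers, 5 were counted in every library and PAX8 had at most 2 reads. Of 8 markers of other cell types, PTPRC, CD3E, PECAM1, CDH5, DCN and ALB were at or near 0 with at most 8 reads, and COL1A1 and COL3A1 were counted. The summed level of those 8 was 1152, 1347 and 1169 in WT, 1916, 2006 and 2009.7 in MUT and 759.6, 953 and 1168 in SWP, nearly all of it COL1A1, and its part in the results was not tested.

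Of the replacement and variant histone genes, which can be placed in chromatin outside S phase, H2AX rose in MUT against both other lines and H3-3A fell in MUT against SWP. In MUT against WT, 1 of 8 tested rose and the other 7 did not pass both thresholds, an adjusted p under 0.05 in limma and a log2 fold change beyond 0.5; over all 20884 genes tested, 11.3% rose and 10.1% fell. In SWP against WT no member passed both thresholds, with 2 of 8 at an unadjusted p under 0.05 in limma and 0 called by edgeR or DESeq2, where 2.15% of all genes rose and 2.98% fell. In MUT against SWP 1 rose and 1 fell, where 12.3% of all genes rose and 8.31% fell. Without MUT replicate 3, 2 genes were called in MUT against WT, MACROH2A2 being the gene added. At an adjusted p under 0.05 alone, 6 of 8 differed in MUT against WT, 1 in SWP against WT and 6 in MUT against SWP, where 38.4%, 9.97% and 38% of all genes did.

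H2AX at chr11:119093874-119095465 had normalised read counts of 12465, 10332 and 11694 in the WT libraries, 16104, 17492 and 19056 in MUT and 13116, 9916 and 11281 in SWP. All MUT libraries were above all WT and SWP libraries, which overlapped. H2AX was 153% of WT in MUT (log2 fold change 0.61, SE 0.11, adjusted p = 0.0011) and 153% of SWP (log2 fold change 0.62, SE 0.11, adjusted p = 9.77e-04), and SWP was 99.5% of WT (log2 fold change -0.01, adjusted p = 0.96). Both calls held without each library in turn. Because H2AX has the stem-loop, its count in these poly(A)-selected libraries may not be its total mRNA. Whether the total or the form of its 3′ end differed was not tested.

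H1-10, a replacement linker histone gene, had 21502, 24762 and 27355 in the WT libraries, 30216, 32922 and 34174 in MUT and 23896, 28931 and 31810.2 in SWP, and its difference in MUT stayed under the fold threshold (log2 fold change 0.41, SE 0.11, adjusted p = 0.015).

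H2A.Z is a variant placed around transcription start sites, and its genes differed in level and in change. H2AZ1 at chr4:99948086-99950355 was the histone gene with the highest count and did not pass the test in any comparison, with 63402, 55303 and 64583 in the WT libraries, 62837, 62716 and 63320.1 in MUT and 60157, 54266 and 55008 in SWP. H2AZ2 had 8309, 7969 and 8695 in the WT libraries, 10908, 10937 and 11164 in MUT and 8997, 8547 and 8663 in SWP, and every MUT library was above every other library. The differences passed the adjusted p (log2 fold change 0.40, SE 0.06, adjusted p = 3.27e-04 in MUT against WT and log2 fold change 0.33, adjusted p = 0.0011 against SWP) and stayed under the fold threshold.

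H3.3 is the H3 that replaces H3 outside replication, and the same protein is encoded by H3-3A and H3-3B. H3-3B at chr17:75776434-75785893 had 48280.0, 44006 and 48646 in the WT libraries, 47984, 49324 and 47834 in MUT and 40285, 38857 and 38377 in SWP. SWP was the lowest line, at 83.4% of WT (log2 fold change -0.26, SE 0.06, adjusted p = 0.022), again under the fold threshold. H3-3A at chr1:226061851-226072019 had far fewer counts, 753, 668 and 712 in the WT libraries, 554, 564 and 553 in MUT and 846, 831 and 782 in SWP, the order being SWP, WT and MUT from high to low with no overlap between lines. H3-3A fell in MUT against SWP (log2 fold change -0.56, SE 0.08, adjusted p = 3.74e-04), and the difference from WT was under the fold threshold (log2 fold change -0.35, adjusted p = 0.0065). In 20.6% of the 75-base windows of H3-3A no 31-base stretch is unique in the genome, so that its low count relative to H3-3B is uncertain.

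MacroH2A is a large H2A variant with an added globular domain, found on silent chromatin, and its genes differed in opposite directions in MUT. MACROH2A1 had 19024, 16939 and 19474 in the WT libraries, 22884, 22479.5 and 23013 in MUT and 20537, 18881 and 20034 in SWP, a difference of 0.31 on the log2 scale in MUT against WT (SE 0.07, adjusted p = 0.0046). MACROH2A2 had 9748, 9787 and 10612 in the WT libraries, 6843, 7271 and 7614 in MUT and 9558, 9457 and 10188 in SWP, with MUT the lowest line at 72.1% of WT (log2 fold change -0.47, SE 0.07, adjusted p = 2.68e-04). Neither difference passed the fold threshold, except that MACROH2A2 passed it without MUT replicate 3 (log2 fold change -0.51).

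**Figure D2:**
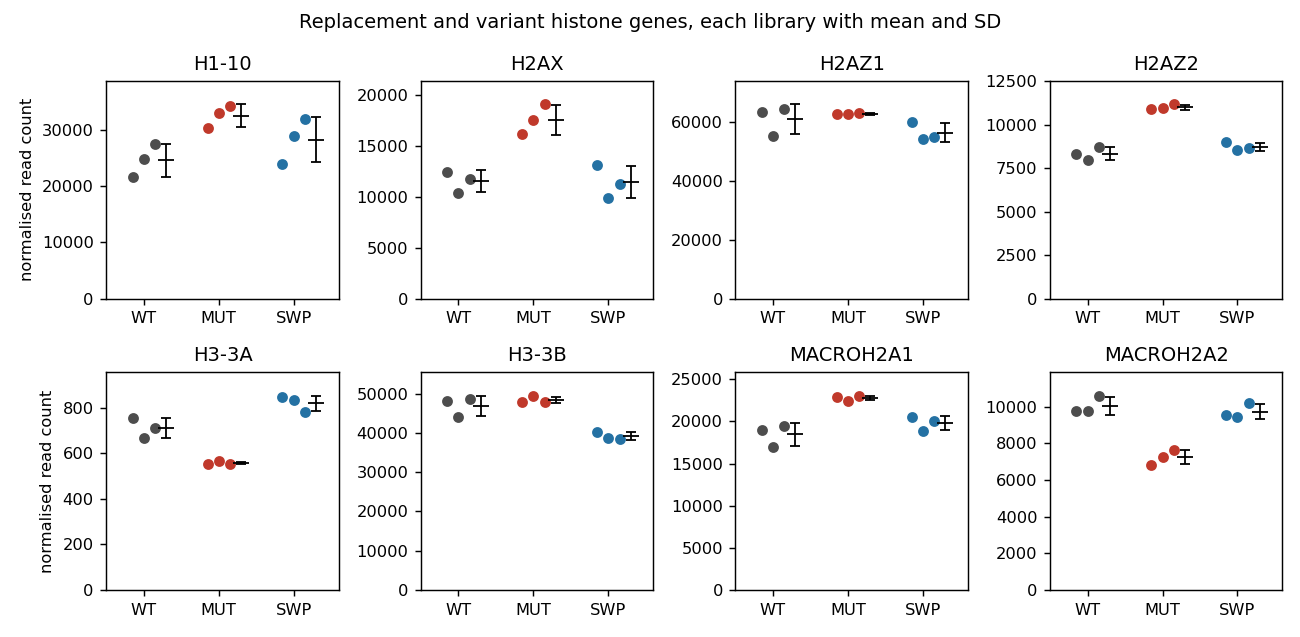
Normalised read count (linear axis from 0) of the 8 tested replacement and variant histone genes in the 3 libraries of each line (points, replicates 1 to 3 from left to right), with the mean and SD. H2AX and H2AZ2 lie higher in all MUT libraries and MACROH2A2 and H3-3A lower.

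Of the replication-dependent genes, H1-2, H2BC12 and H2AC6 had lower counts in SWP than in WT in these poly(A)-selected libraries. H1-2, H2BC26, H2BC5 and H4C8 had higher counts in MUT than in WT. In MUT against WT, 4 of 31 tested rose (H1-2, H2BC26, H2BC5 and H4C8) and 2 fell (H2BC13 and H2BC9), and the median log2 fold change was 0.10 beside -0.0034 over all genes. In SWP against WT 3 fell (H1-2, H2AC6 and H2BC12), with a median of -0.12 beside -0.06. In MUT against SWP 9 rose and 1 fell, with a median of 0.20 beside 0.04. Against the shares of all genes given above, those that rose in MUT against WT (12.9%, beside 11.3%) and fell (6.45%, beside 10.1%) were near the background. In SWP against WT 9.68% fell, beside 2.98%, and in MUT against SWP 29.0% rose, beside 12.3%, and 3.23% fell, beside 8.31%. In MUT against WT, DESeq2 called neither fall (adjusted p = 0.14 for H2BC13 and 0.072 for H2BC9) and called H3C6 (adjusted p = 0.035). The count in MUT against WT rested on single libraries: without MUT replicate 1 or WT replicate 2 only 2 genes were called, and without MUT replicate 2 or MUT replicate 3, 3 were called. Without SWP replicate 3, 6 of 31 were called in MUT against SWP. Without WT replicate 1 and SWP replicate 1 together, the counts were 6, 3 and 10, an alternative chosen after the data were seen.

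H1-2 carried the largest difference. It encodes a somatic linker histone at chr6:26055740-26056470, and it had 878, 934 and 994 in the WT libraries, 1205, 1353 and 1433 in MUT and 431, 449 and 387 in SWP. The lines did not overlap, with MUT highest and SWP lowest. H1-2 was 45.2% of WT in SWP (log2 fold change -1.15, SE 0.10, adjusted p = 2.93e-05) and 315% of SWP in MUT (log2 fold change 1.65, SE 0.10, adjusted p = 4.24e-07), and both calls held without each library. The rise in MUT against WT to 142% (log2 fold change 0.51, SE 0.10, adjusted p = 0.002) lay at the fold threshold, and fell under it without WT replicate 1, MUT replicate 2 or MUT replicate 3 (log2 fold change 0.46, 0.49 and 0.45). H1-4, the other H1 gene tested, had 14.6 to 35.6 counts and did not pass the test in any comparison.

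H2BC12 at chr6:27146361-27146855 and H2AC6 at chr6:26124145-26139116, core histone genes, were also low in SWP. H2BC12 had 1203, 1106 and 1195 in the WT libraries, 1254, 1226 and 1340.4 in MUT and 875, 649 and 727 in SWP, with every SWP library under every other library. It fell to 64.2% of WT (log2 fold change -0.65, SE 0.11, adjusted p = 0.003), was higher in MUT than in SWP (log2 fold change 0.77, adjusted p = 2.19e-04) and did not pass the test in MUT against WT (log2 fold change 0.12, adjusted p = 0.38). In 43.0% of the windows of H2BC12 the sequence is repeated, H2BC12L being a copy listed at 0, so that reads of the copy may be counted here. H2AC6 had 404, 322 and 402 in the WT libraries, 373, 334 and 339 in MUT and 285, 183 and 153 in SWP, and fell in SWP against WT (log2 fold change -0.90, SE 0.20, adjusted p = 0.014), a call lost without WT replicate 3, SWP replicate 2 or SWP replicate 3 (adjusted p = 0.065, 0.054 and 0.052). It rose in MUT against SWP (log2 fold change 0.80, adjusted p = 0.0082). An unnamed gene overlaps H2AC6 on the same strand, and its reads may be counted with it.

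The H2B genes, 12 of the 31 tested, gave most of the calls between MUT and SWP. Among these H2B genes 5 were higher in MUT (41.7%, beside 12.3% of all genes) and 1 was lower (8.33%, beside 8.31%). H2BC26 at chr1:228458103-228463104 had 81.0, 97.7 and 98.2 in the WT libraries, 133, 149 and 158 in MUT and 85.9, 95.1 and 83.0 in SWP, all MUT libraries being the highest. It rose in MUT against WT (log2 fold change 0.66, SE 0.15, adjusted p = 0.0042) and against SWP (log2 fold change 0.73, adjusted p = 0.0024), without exception when each library was left out. H2BC5 had 222, 146 and 206 in the WT libraries, 299.5, 281 and 283 in MUT and 215, 152 and 164 in SWP, and rose against WT (log2 fold change 0.61, SE 0.18, adjusted p = 0.019) and SWP (log2 fold change 0.71, adjusted p = 0.0084), the first call being lost without WT replicate 2 or MUT replicate 1 (adjusted p = 0.069 and 0.065). H2BC21 had 204, 230.1 and 224 in the WT libraries, 311, 293 and 278 in MUT and 169.6, 179.8 and 178 in SWP, with no overlap between any lines. It rose in MUT against SWP (log2 fold change 0.74, SE 0.11, adjusted p = 3.50e-04), and its differences from WT were under the thresholds (log2 fold change 0.42 in MUT and -0.32 in SWP). H2BC11 rose in MUT against SWP (log2 fold change 0.55, adjusted p = 0.031), although its libraries overlapped and the call was lost without each of MUT replicates 1 to 3 and SWP replicates 2 and 3 (adjusted p 0.053 to 0.12).

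H2BC9 was the replication-dependent gene called lower in MUT than in both other lines. It had 62.5, 58.4 and 56.8 in the WT libraries, 37.0, 45.7 and 34.1 in MUT and 76.8, 46.8 and 56.5 in SWP, with a log2 fold change of -0.60 against WT (adjusted p = 0.042) and -0.59 against SWP (adjusted p = 0.045). The first call was lost without any WT library, MUT replicate 1, MUT replicate 3 or SWP replicate 3 (adjusted p 0.055 to 0.14). The second was lost without WT replicate 2, WT replicate 3, MUT replicate 1, MUT replicate 3, SWP replicate 1 or SWP replicate 3 (adjusted p 0.055 to 0.14). H2BC13 had 21.5, 20.2 and 15.4 in the WT libraries, 8.32, 9.72 and 13.6 in MUT and 11.5, 14.9 and 12.7 in SWP, few counts, and its fall in MUT against WT (log2 fold change -0.81, SE 0.27, adjusted p = 0.038) was lost without WT replicate 1, WT replicate 2, MUT replicate 1 or MUT replicate 2 (adjusted p = 0.098, 0.096, 0.13 and 0.1).

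Few H2A, H3 and H4 genes passed the test. In MUT against SWP 1 of 8, 1 of 3 and 1 of 6 tested rose. That is 12.5%, 33.3% and 16.7%, beside 12.3% of all genes. H2AC25, the replication-dependent gene with the highest count, had 1089, 1406 and 1616 in the WT libraries, 1216, 1225 and 1240.1 in MUT and 1106, 1327 and 1179 in SWP and did not pass in any comparison, and neither did H2AC11, with 178 to 272 counts. H3C6 at chr6:26224199-26227473 had 319, 239 and 281 in the WT libraries, 417, 487 and 367 in MUT and 368, 169 and 203 in SWP. SWP replicate 1 was apart from the other SWP libraries. H3C6 rose in MUT against SWP (log2 fold change 0.85, SE 0.24, adjusted p = 0.018), lost without MUT replicate 2, SWP replicate 2 or SWP replicate 3 (adjusted p = 0.07, 0.071 and 0.065), and in MUT against WT it did not pass (log2 fold change 0.60, adjusted p = 0.075). H4C8 at chr6:26277609-26285638 had 70.7, 51.6 and 68.3 in the WT libraries, 93.4, 86.5 and 99.4 in MUT and 71.0, 61.7 and 55.4 in SWP, MUT being highest. It rose against WT (log2 fold change 0.55, SE 0.18, adjusted p = 0.029) and SWP (log2 fold change 0.57, adjusted p = 0.026), and the first call was lost without WT replicate 2 or any MUT library (adjusted p 0.054 to 0.10) and the second without any MUT library, SWP replicate 2 or SWP replicate 3 (adjusted p 0.050 to 0.090). With the replicate number as a block, H2AC20 and H4C9 also passed in MUT against SWP (adjusted p = 0.046 for a log2 fold change of 0.53, and 0.045 for -0.59). The other members named for their level, H3C10, H3C12, H4C3 and H4C16, did not pass in any comparison.

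**Figure D3:**
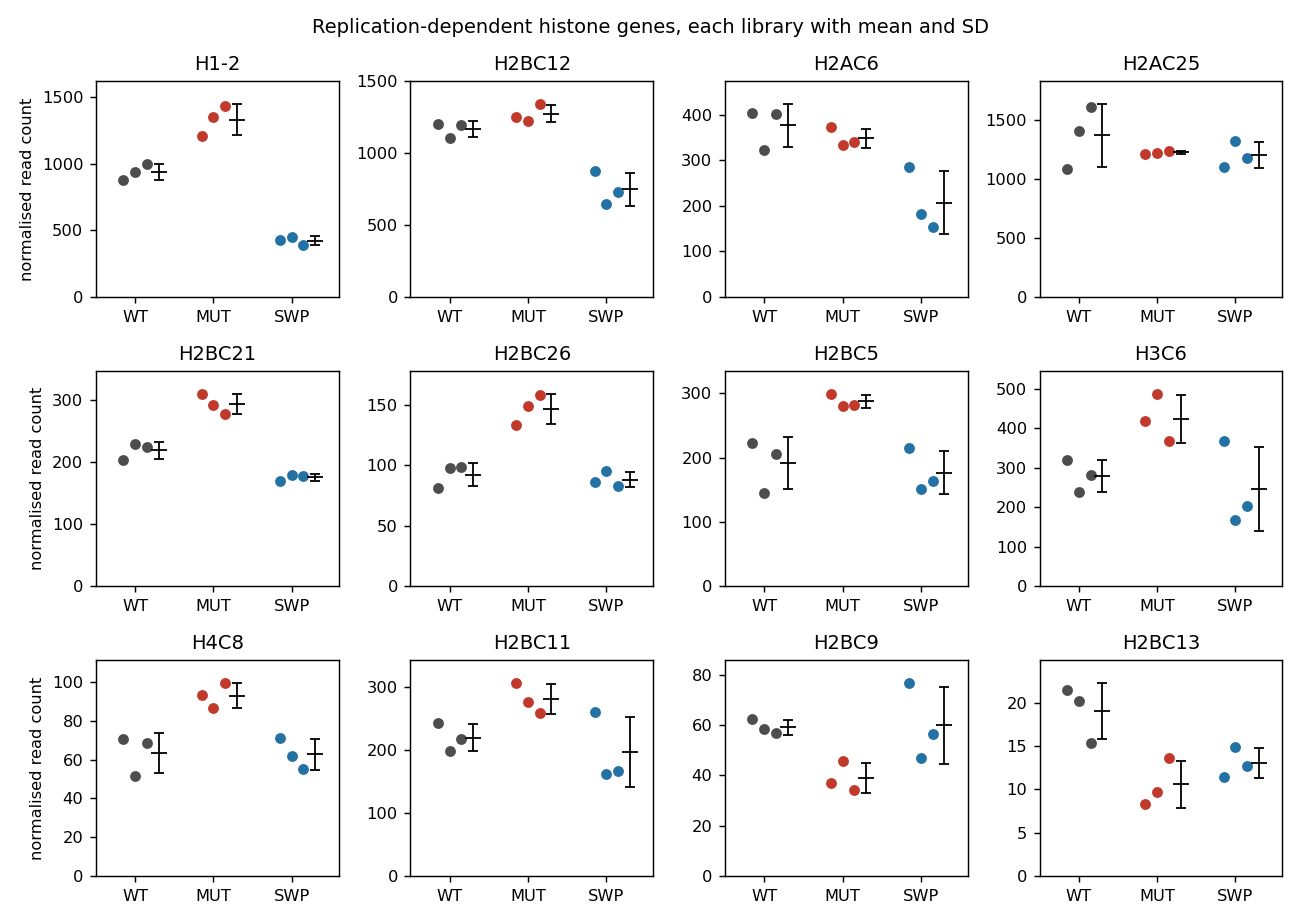
Normalised read count (linear axis from 0) of 12 replication-dependent histone genes in the 3 libraries of each line (points, replicates 1 to 3 from left to right), with the mean and SD. H1-2 is separate in each line, from 387 to 449 in SWP to 1205 to 1433 in MUT, and H2BC12 is lowest in SWP.

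**Figure D4:**
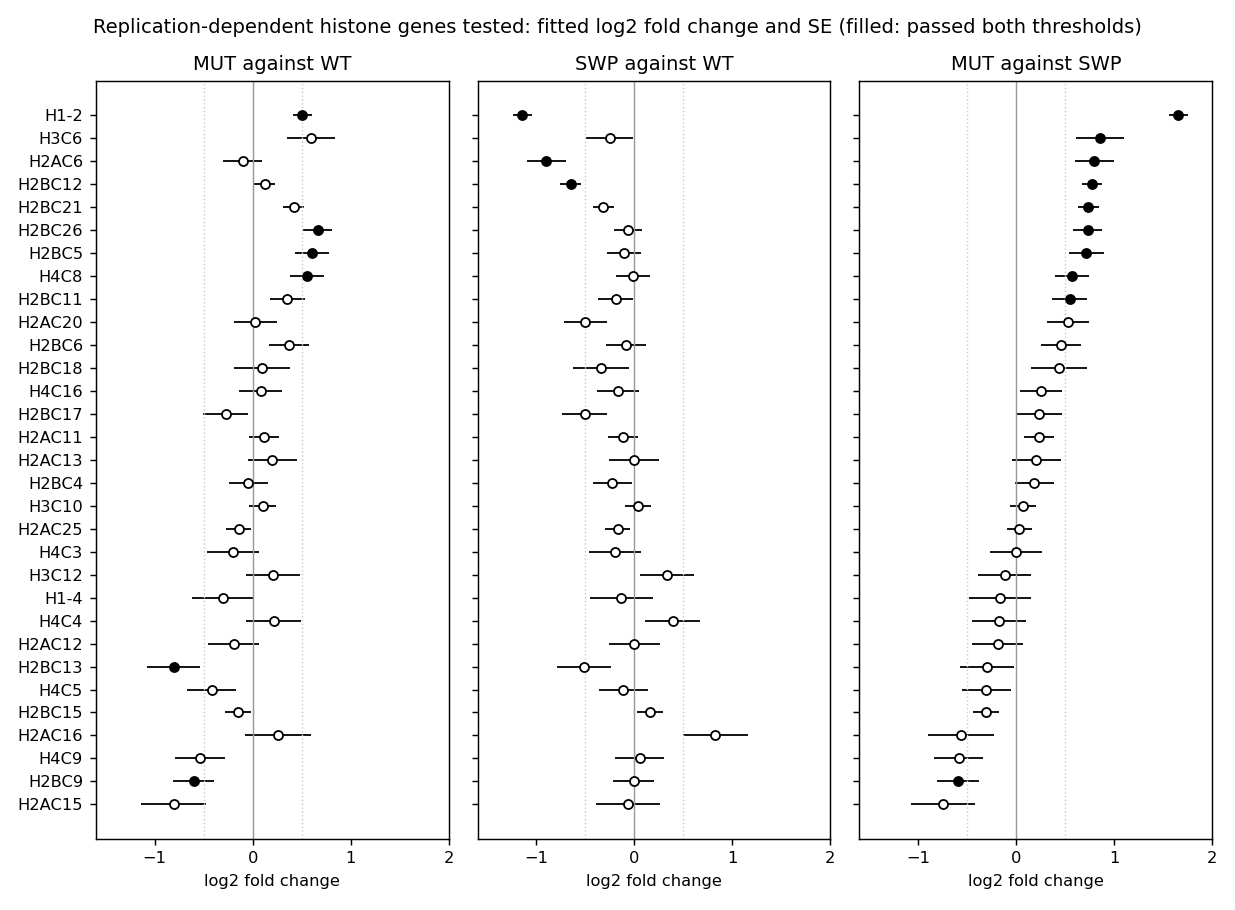
Fitted log2 fold change (point) and its SE (bar) of the 31 replication-dependent genes tested, in each of the 3 comparisons and in the order of MUT against SWP. Filled points passed both thresholds: 6 in MUT against WT, 3 in SWP against WT and 10 in MUT against SWP, and dotted lines mark the fold threshold.

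Summed over the 66 listed genes, the normalised read counts were 5902, 5867 and 6517 in WT, 6798, 6909.9 and 6885 in MUT and 5186, 4522 and 4331 in SWP. The lines did not overlap. MUT was 113% and SWP 76.8% of WT. The 17 genes with a longer annotated transcript summed to 3107, 3174 and 3613 in WT, 3652, 3665 and 3489 in MUT and 3106, 2803 and 2635 in SWP, with WT and MUT overlapping and SWP replicate 1 next to WT replicate 1. The 48 genes annotated to end at the stem-loop summed to 2795, 2693 and 2904 in WT, 3146, 3245 and 3396 in MUT and 2081, 1719 and 1696 in SWP, with no overlap between lines. Without H1-2 and H2BC12, chosen after their values were seen, the remaining 46 summed to 713, 653 and 715 in WT, 686, 666 and 622 in MUT and 774, 621 and 582 in SWP, and the lines overlapped.

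In a bulk culture, fewer cells in S phase and less histone RNA per cell cannot be told apart. Of 33 S-phase genes whose mRNA is polyadenylated, 3 rose and 3 fell in MUT against WT, 1 rose and 1 fell in SWP against WT, and 2 rose and 2 fell in MUT against SWP, with medians of 0.07, -0.10 and 0.10. Each direction was 9.09% in MUT against WT, beside 11.3% up and 10.1% down over all genes. It was 3.03% in SWP against WT, beside 2.15% and 2.98%, and 6.06% in MUT against SWP, beside 12.3% and 8.31%. In MUT against WT the nucleotide synthesis genes TK1 (log2 fold change 0.67, adjusted p = 4.99e-05) and RRM2 (log2 fold change 0.59, adjusted p = 0.0011) and the flap endonuclease gene FEN1 (log2 fold change 0.58, adjusted p = 0.0021) rose. The licensing factor CDT1 (log2 fold change -0.98, adjusted p = 0.0021), the polymerase gene POLD1 (log2 fold change -0.72, adjusted p = 2.32e-05) and the ligase gene LIG1 (log2 fold change -0.52, adjusted p = 9.71e-04) fell. FEN1 rose (log2 fold change 0.51, adjusted p = 0.015) and POLE fell (log2 fold change -0.51, adjusted p = 0.0051) in SWP against WT. The part of the number of cells in S phase in the histone counts was not tested.

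Promoters of H1-2 and H2BC12, those of the highest count among the genes that fell in SWP against WT, are shown from RefSeq (GRCh38.p14), from 250 bases before to 50 bases after the start, 5′ to 3′ on the coding strand. H1-2 covers chr6:26056421-26056720 and H2BC12 chr6:27146806-27147105, both on the minus strand. Capitals mark the octamer ATTTGCAT, the TATA box TATAAA and CCAAT, each on either strand, and overlapping matches of TATAAA on opposite strands run together.
H1-2 promoter: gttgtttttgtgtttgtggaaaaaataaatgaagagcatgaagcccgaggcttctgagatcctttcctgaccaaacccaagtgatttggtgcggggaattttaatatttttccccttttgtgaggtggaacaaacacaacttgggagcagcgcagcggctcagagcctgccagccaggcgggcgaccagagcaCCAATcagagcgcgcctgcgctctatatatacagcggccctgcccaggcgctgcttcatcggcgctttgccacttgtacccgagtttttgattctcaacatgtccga
H2BC12 promoter: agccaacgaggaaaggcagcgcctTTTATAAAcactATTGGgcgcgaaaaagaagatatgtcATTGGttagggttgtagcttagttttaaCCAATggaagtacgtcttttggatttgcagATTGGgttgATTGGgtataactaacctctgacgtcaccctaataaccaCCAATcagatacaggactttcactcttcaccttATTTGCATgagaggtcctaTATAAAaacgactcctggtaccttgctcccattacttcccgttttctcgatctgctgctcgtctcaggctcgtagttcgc
The H2BC12 window holds all 3 motifs, and the H1-2 window CCAAT alone. The octamer was in 14 of 18 H2B promoters and 11 of 16 H2A promoters, in none of the replication-dependent H1, H3 and H4 promoters, and in 1.83% of all 27305 promoters of this length. CCAAT was in 100% of the H1, H2A, H2B and H3 promoters and in 3 of 13 H4 promoters, against 35.4% of all. TATAAA was in 65.6% of the replication-dependent promoters and 12.3% of all. Many H2A and H2B genes face each other across a shared promoter, so that these counts are not of separate sequences, and a match describes letters only.

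Genes near the histone clusters were compared next, since most replication-dependent genes lie in 1 region of chromosome 6. Of 31 other protein-coding genes tested within 1 Mb of the chromosome 6 genes, 1 rose and 9 fell in MUT against WT, with a median log2 fold change of -0.39, against 3 up and 2 down of 25 histone genes there and a median of 0.10. Of these neighbours 3.23% rose and 29.0% fell, beside 11.3% and 10.1% of all genes. Of the histone genes there 12% rose and 8% fell. In SWP against WT, 1 neighbour rose and 0 fell in limma (3 of 31 at an unadjusted p under 0.05, 1 called in all by edgeR and by DESeq2), with a median of -0.04, while 3 of the 25 histone genes fell. That is 3.23% of neighbours up, beside 2.15% of all genes, and 12% of histone genes down, beside 2.98%. In MUT against SWP, 8 neighbours fell (25.8%, beside 8.31% of all genes) and 0 rose (beside 12.3%). Of the histone genes there 28% rose and 4% fell. Of 46 neighbours on chromosome 1, 3 rose and 5 fell in MUT against WT, and 3 rose and 2 fell in MUT against SWP. In SWP against WT 1 neighbour there rose (2.17%, beside 2.15% of all genes) and 6 fell (13.0%, beside 2.98%). Of the 5 histone genes tested there, 1 rose in MUT against WT (20%, beside 11.3% of all genes). In MUT against SWP 2 of these 5 rose (40%, beside 12.3%). The chromosome 1 neighbours had medians of -0.09, -0.07 and -0.0048 in the 3 comparisons. Of them 6.52% rose and 10.9% fell in MUT against WT, and 6.52% rose and 4.35% fell in MUT against SWP.

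Factors that make and process histone mRNA were examined in lists. SLBP, which binds the stem-loop, had 9215, 8169 and 8887 in the WT libraries, 9672, 9989.6 and 9589 in MUT and 9624, 9502 and 9324 in SWP and did not pass the test in any comparison (adjusted p 0.068, 0.29 and 0.64). NPAT, the coactivator of replication-dependent histone genes, had 3369, 3358 and 2999.7 in the WT libraries, 3559.8, 3521 and 3439.7 in MUT and 4485, 3999.8 and 3814 in SWP, a difference under the fold threshold in SWP against WT (log2 fold change 0.34, SE 0.08, adjusted p = 0.019). Of the 10 genes of histone gene transcription, 1 rose in MUT against both other lines, E2F1, a transcription factor of S-phase entry (log2 fold change 0.58, adjusted p = 2.58e-05 against WT). That is 10% in each comparison, beside 11.3% of all genes in MUT against WT and 12.3% in MUT against SWP. HINFP, which binds H4 promoters, had 2036, 1921 and 2169 in the WT libraries, 2099, 2129.9 and 2068 in MUT and 2798, 2908 and 2794 in SWP and stayed just under the fold threshold in SWP against WT in limma (log2 fold change 0.47, adjusted p = 0.0012). In that comparison limma called 0 of the 10 transcription genes, and edgeR and DESeq2 each called 1.

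Of 28 genes of 3′ end processing, 0 rose (beside 11.3% of all genes) and 4 fell (14.3%, beside 10.1%) in MUT against WT. They were CPSF1 (log2 fold change -0.73, adjusted p = 1.57e-05), LSM11 of the U7 snRNP (log2 fold change -0.62, adjusted p = 0.0033), CPSF4 (log2 fold change -0.59, adjusted p = 6.77e-04) and the scaffold SYMPK (log2 fold change -0.55, adjusted p = 4.71e-05). In SWP against WT 1 of 28 fell (3.57%, beside 2.98% of all genes), COIL, which encodes the marker protein of Cajal bodies. COIL had 6702, 6104 and 6405 in the WT libraries, 5712, 5521 and 5471 in MUT and 3813, 3429 and 3074 in SWP, with SWP under both other lines, at 53.7% of WT (log2 fold change -0.90, SE 0.08, adjusted p = 4.30e-05), and it was higher in MUT than in SWP (log2 fold change 0.70, adjusted p = 6.13e-05). In MUT against SWP CSTF1, of the cleavage stimulation factor, also rose (log2 fold change 0.57, adjusted p = 5.01e-05) and CPSF4 fell (log2 fold change -0.53, adjusted p = 0.0013). In that comparison 7.14% of the list rose and 3.57% fell, beside 12.3% and 8.31% of all genes. Of 12 genes of histone mRNA decay, TUT4 (log2 fold change -0.64, adjusted p = 2.62e-05) and EXOSC10 (log2 fold change -0.51, adjusted p = 2.21e-04) fell in MUT against WT, and in MUT against SWP ERI1, an exonuclease that acts on the stem-loop, rose (log2 fold change 0.56, adjusted p = 0.0011) and TUT4, a uridylyltransferase, fell (log2 fold change -0.54, adjusted p = 7.76e-05). Of the decay genes 0 rose and 16.7% fell in MUT against WT, beside 11.3% and 10.1% of all genes. In MUT against SWP 8.33% rose and 8.33% fell, beside 12.3% and 8.31%. The medians of the transcription, processing and decay lists lay between -0.18 and 0.05 on the log2 scale over the 3 comparisons.

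RNAs that lack a poly(A) tail were counted because they could bear on how selective the libraries were. Of 24 such RNAs listed, 7 had no read in any library, RN7SK, RN7SL1, RMRP and RPPH1 among them, and 4 passed the minimum. RN7SL2 had 502 to 2695 reads while RN7SL1 was listed at 0. The treatment of reads that match several copies is not stated. Whether a 0 here reflects poly(A) selection or reads that were not assigned was not tested. These 24 summed to 37.5 to 61.4 reads per 1000000, nearly all of it RN7SL2 and MALAT1, and without these 2 to 1.01 to 1.57. Over the lines, the sum without RN7SL2 and MALAT1 was 82.0, 116 and 120.3 in WT, 87.8, 96.2 and 93.5 in MUT and 76.8, 89.9 and 86.5 in SWP. In limma 0 of these 4 passed both thresholds in any comparison, and 0, 1 and 1 had an unadjusted p under 0.05 in MUT against WT, SWP against WT and MUT against SWP, where edgeR and DESeq2 each called 0, 0 and 1. The gene with the unadjusted p was MALAT1 (log2 fold change 0.43, adjusted p = 0.021 in SWP against WT and log2 fold change -0.48, adjusted p = 0.0031 in MUT against SWP). MALAT1 is cut at its 3′ end and carries an A-rich stretch there. The share of the histone counts that came from tailless RNA was not tested.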

How the data were processed

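RNA-seq was analysed in 9 of the 213 samples listed for the study, 3 libraries each of WT, MUT and SWP HEK293T cells. Groups and replicate numbers came from the sample labels, whose titles number the libraries of a line as Bio1 to Bio3. Whether these came from separate cultures is not stated in the sources used here, and p-values measure the spread between these libraries.

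The authors made poly(A)-selected, directional libraries, sequenced 75 cycles, mapped the reads to hg38 by bwa mem under its defaults, deduplicated the mapped reads with Picard MarkDuplicates, counted reads per GENCODE gene and divided by DESeq2 size factors. The submitters' processing notes name cutadapt 1.18 and BWA 0.7.17-r2188. The counting tool and its use of strand are not given in the sources used here. The deposited values are a signal of normalised read counts. They came out as whole reads for 100% of the values (within 0.0001 of a read) after division by the smallest step. Deduplication can lower the counts of short, highly covered genes. This aligner leaves reads over exon junctions unjoined, and the treatment of reads that match several copies is not stated. Of 39 tested histone genes, 13 overlap another gene, and 4 of these (H2AC6, H2BC26, H3-3B and H3C12) overlap one on the same strand. Reads in a same-strand overlap cannot be told apart by strand, and those in the other overlaps cannot be told apart without it.

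Members, classes and gene lists were chosen with earlier results of these data known. Symbols and positions came from GENCODE release 44 on hg38, which matched 57754 of 58336 identifiers. Tests were made with limma 3.58.1 (R 4.3.3; lmFit, eBayes with trend) on log2(normalised count + 1) over the 20884 genes with a mean of at least 10, with 9 libraries in 1 fit, no covariate and Benjamini-Hochberg adjustment over all genes. Fold changes on this scale understate changes of low genes. Genes were called at adjusted p below 0.05 where the absolute log2 difference exceeded 0.5. An exact permutation test of 3 against 3 libraries cannot give a p under 0.1, so that no single gene can pass it. As alternatives, the reads were tested with edgeR 4.0.16 and with DESeq2 1.42.0, and pseudocount, minimum, scaling and libraries were varied. The fit was tested on simulated data.

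Named genes were all replacement or variant genes tested, the 3 replication-dependent genes of highest mean in each family, the 3 largest rises and falls called in each comparison, SLBP, NPAT, and up to 3 list genes called in each direction and comparison. HINFP, MALAT1, H2AC20, H4C9, CENPA and H3-5 were named after their values were seen. A histone gene and a cell type marker are not reported here and were left out of every count and sum of members and markers.

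Same-numbered libraries deviated together in SWP and WT (correlations 0.10 to 0.56) and in MUT and SWP (0.23 to 0.33), each pair over 0.1, and were taken as paired there by that rule alone. The main limma fit did not use this pairing, so that its calls and p-values are unpaired in every comparison. The replicate number entered only as a block in an alternative fit. In SWP and WT, libraries of different number also correlated. The values were 0.26 for WT replicate 2 with SWP replicate 3 and 0.17 for WT replicate 3 with SWP replicate 2. Both exceed the 0.10 of WT replicate 3 with SWP replicate 3, so that pairing of replicates 2 and 3 is not established there. In MUT and WT the correlations were 0.049 to 0.33, and the numbers were not taken as paired.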

Additional observations from a re-analysis of the deposited data

Results flagged for a closer look

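H1-2, a linker histone gene, was the histone gene called in both edited lines against WT with opposite signs. The log2 fold change was 0.51 in MUT against WT (adjusted p = 0.002) and -1.15 in SWP against WT (adjusted p = 2.93e-05), both against the same 3 WT libraries. The difference between the edited lines, tested directly in limma, was 1.65 (SE 0.10, adjusted p = 4.24e-07), with all 3 MUT libraries above all 3 SWP libraries. That difference and the fall in SWP held without each library in turn, and the call in MUT against WT fell under the fold threshold without WT replicate 1, MUT replicate 2 or MUT replicate 3 (log2 fold change 0.46, 0.49 and 0.45).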

How the results depend on the processing

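Of 2865 values of named genes under the alternatives, 2748 stayed on the same side of the thresholds, 100 lost the call, 17 gained it and 0 reversed. That total includes genes not called in the main fit, which have no call to lose. Of the replication-dependent calls, 1 of 6 in MUT against WT held without each library in turn. In SWP against WT 2 of 3 held, and in MUT against SWP 6 of 10. Of the replacement calls, 1 of 1 held in MUT against WT and 2 of 2 in MUT against SWP. A minimum log2 fold change of 1 left 0, 1 and 1 replication-dependent genes called in MUT against WT, SWP against WT and MUT against SWP, and 0, 0 and 0 replacement or variant genes (limma; the counts at an unadjusted p under 0.05 were 6, 2 and 6). An adjusted p under 0.05 alone gave 6, 1 and 6 of the latter, beside 38.4%, 9.97% and 38% of all genes. Leaving out libraries gave 2 to 7 replication-dependent calls in MUT against WT and 6 to 11 in MUT against SWP, and 1 to 2 replacement calls in MUT against WT.

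The median log2 fold change of the replication-dependent genes depended on the minimum: in MUT against WT it was 0.35 at a minimum mean of 50 and 0.0075 with none, and in MUT against SWP 0.57 and 0.049, since fewer or more genes enter. With equal totals and equal upper quartiles it was 0.17 and 0.13 in MUT against WT, where equal totals moved the median of all genes from -0.0034 to 0.071. Without a library it ran from 0.021 to 0.11 in MUT against WT and from 0.094 to 0.27 in MUT against SWP. The summed count in MUT was 119% of WT with equal totals, 116% with equal upper quartiles and 111 to 117% without a library, and against SWP 150.0% and 142 to 155%.

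With the replicate number as a block, replication-dependent calls were 7, 3 and 12 and replacement calls 1, 0 and 2. In MUT against WT, where the numbers were not taken as paired, the gene gained was H3C6 (adjusted p = 0.022). Beyond H2AC20 and H4C9, the block changed no other call of a member. Genes near the minimum have about 10 reads a library, so that small changes of such genes may not be detectable at this depth, and intervals and floors would cover counting error only.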

Other observations

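Histone genes outside the chosen symbols were counted too. Of 14 listed, 4 were tested. H2AJ, an H2A variant known from senescent and epithelial cells, had normalised read counts of 309.6, 427 and 412 in the WT libraries, 739, 816 and 823 in MUT and 338, 533 and 471 in SWP. It rose in MUT against WT (log2 fold change 1.06, SE 0.17, adjusted p = 6.02e-04) and against SWP (log2 fold change 0.85, adjusted p = 0.0024), and in SWP against WT it did not pass (log2 fold change 0.21, adjusted p = 0.51). CENPA, the H3 variant of centromeres, had 2457, 2282 and 2384 in the WT libraries, 2795, 2768 and 2582 in MUT and 2347, 2416 and 2179.6 in SWP and stayed under the fold threshold in every comparison. H3-5, a retrocopy of H3-3B known from testis, had 3592, 3468 and 3905 in the WT libraries, 3716, 3817 and 3974 in MUT and 3195, 3067 and 3448 in SWP, more than H3-3A in every library. Whether reads counted on H3-5 come from H3-3B was not tested.

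Histone chaperones, which carry histones to DNA, were called in few cases. Of 28 tested, TONSL fell in MUT against WT (log2 fold change -0.78, adjusted p = 4.52e-05). That is 3.57% down and 0% up, beside 10.1% and 11.3% of all genes. In MUT against SWP, TONSL (log2 fold change -0.54, adjusted p = 4.89e-04) and ATRX (log2 fold change -0.50, adjusted p = 0.0025) fell and MMS22L, the partner of TONSL, rose (log2 fold change 0.50, adjusted p = 0.0015). In that comparison 3.57% rose and 7.14% fell, beside 12.3% and 8.31% of all genes. In SWP against WT limma called 0 of 28, with 10 at an unadjusted p under 0.05, and edgeR and DESeq2 called 0.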
